A study of Homo sapiens with 36 samples.

Results

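F13A1, TMEFF2, DSP and ALOX15 were examined across the 6 conditions of an RNA-seq experiment in human neural stem cells (hNSC) in which the TALE homeodomain factors MEIS1 or MEIS2 were raised or disrupted. The 4 genes were chosen from the measurements themselves, as genes listed under a wound healing term that were lower where MEIS activity was higher, and they are 4 of 28516 genes in the count table and 4 of the 19689 genes tested. Their values in the MEIS comparisons are therefore given as a description, without a test.

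All cells were commercial hNSC kept in serum-free medium and harvested 48 h after lentiviral infection. MEIS1-OE and MEIS2-OE received a catalytically inactive Cas9 fused to VP64, an MS2-dependent activator and a guide at the promoter of MEIS1 or MEIS2, and ctrl-OE received the same system with a non-targeting guide. MEIS1-KO and MEIS2-KO received cutting Cas9 with a mixture of 2 guides against MEIS1 or MEIS2, and ctrl-KO received cutting Cas9 with a non-targeting guide. Each condition had 6 libraries of 15429985 to 22940493 counted reads, with a median of 20324720. The knockouts are mixed populations of infected cells and not clones, and the overexpression and knockout arms differ in vectors as well as in Cas9 form. The labels do not say whether the 6 libraries of a condition came from separate cultures, so p-values measure the spread between these libraries, which may be partly technical. MEIS1 mRNA was 310.2 CPM (counts scaled to a common library size) in MEIS1-OE against 17.8 in ctrl-OE and 8.96 in MEIS1-KO against 25.7 in ctrl-KO, and MEIS2 mRNA was 823.8 CPM in MEIS2-OE against 22.6 and 12.1 in MEIS2-KO against 25.8.

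Wound healing combines clotting, clot crosslinking, lipid mediator synthesis and the closing of cell sheets. F13A1 encodes the catalytic A subunit of coagulation factor XIII, the transglutaminase that crosslinks fibrin, and it is best known from platelets and macrophages. TMEFF2 is a transmembrane protein with follistatin-like modules and an EGF-like domain that can be shed and binds PDGF-AA. DSP encodes desmoplakin, which ties intermediate filaments to desmosomes, the junctions that give epithelia and heart muscle their mechanical strength. ALOX15 encodes an arachidonate lipoxygenase of eosinophils and macrophages that makes both inflammatory and resolving lipid mediators.

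The labelled cell type carried its markers, with a median over all libraries of 1251.6 CPM for NES, 193.3 CPM for SOX2 and 2378.2 CPM for VIM. Among the marker genes of cells better known for these 4 genes, PTPRC, CD163 and MRC1 of macrophages, PF4, PPBP and GP9 of platelets, EPX, CLC, SIGLEC8 and CCR3 of eosinophils, and CDH1, KRT5, KRT14 and KRT19 of epithelium had at most 3 counts in any library. Of these, CD163, PF4, PPBP, SIGLEC8, KRT5, KRT14 and KRT19 had no count at all. Other markers of these cells were detected, with CD14 at up to 9 counts, CSF1R at up to 6 and EPCAM at up to 29 (1.42 CPM) in a library, and the 5 platelet markers summed to 3.94 to 7.05 CPM over all libraries. In bulk RNA, fewer cells of a type and less RNA per cell cannot be told apart.

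The sequences around the gene starts are shown because MEIS proteins bind the motif TGACAG. All 4 genes were lower in MEIS1-OE, which their choice made likely. The study mapped MEIS binding by ChIP-seq in untreated hNSC and found mostly sites away from transcription starts. Such distant sites lie outside the windows shown here. The RefSeq table used here (build GRCh38.p14) held a window of 250 bases before to 50 bases after the gene start for 3 of the 4 genes, namely F13A1 at chr6:6320613-6320912 on the minus strand, TMEFF2 at chr2:192194884-192195183 on the minus strand and DSP at chr6:7541421-7541720 on the plus strand. They are given on the strand of the gene, 5′ to 3′, with the shorter core TGACA, searched on both strands, in capitals.
F13A1: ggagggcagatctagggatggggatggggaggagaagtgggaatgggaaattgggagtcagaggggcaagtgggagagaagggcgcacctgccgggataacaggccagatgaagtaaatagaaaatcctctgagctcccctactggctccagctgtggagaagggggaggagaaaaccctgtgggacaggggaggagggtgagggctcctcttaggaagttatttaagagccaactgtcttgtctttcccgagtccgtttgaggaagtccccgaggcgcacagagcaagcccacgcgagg
TMEFF2: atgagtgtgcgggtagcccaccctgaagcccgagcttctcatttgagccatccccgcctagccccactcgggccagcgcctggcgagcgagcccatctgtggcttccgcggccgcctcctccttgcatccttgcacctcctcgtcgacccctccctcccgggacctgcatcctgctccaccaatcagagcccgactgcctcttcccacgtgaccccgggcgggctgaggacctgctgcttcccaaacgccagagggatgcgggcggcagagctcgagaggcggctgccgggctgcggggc
DSP: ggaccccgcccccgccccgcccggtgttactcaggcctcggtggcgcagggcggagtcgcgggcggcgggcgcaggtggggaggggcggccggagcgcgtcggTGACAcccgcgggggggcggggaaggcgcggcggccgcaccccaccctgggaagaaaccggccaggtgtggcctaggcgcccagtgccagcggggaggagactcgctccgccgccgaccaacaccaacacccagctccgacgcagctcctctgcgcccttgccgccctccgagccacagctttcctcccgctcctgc
TGACAG, which contains TGACA, occurred in none of the 3 windows and in 15.8% of the 35116 windows of the table. TGACA occurred once, in DSP, starting at position -147 relative to the gene start, and in 38.9% of all windows. The GC content was 57.3% for F13A1, 69.3% for TMEFF2 and 77.0% for DSP, against a median of 58.7%. A match of letters is not a binding site, and a window without a match says only that these letters are not in it.

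F13A1 was the most abundant of the 4 genes. Its gene occupies positions 6144317 to 6321246 of chromosome 6 (GRCh37, minus strand). Expression spanned 33.6 to 38.4 CPM in ctrl-OE (median 36.6), 15.3 to 19.5 CPM in MEIS1-OE (median 17.2) and 19.5 to 24.0 CPM in MEIS2-OE (median 21.8). Every library of either overexpression lay below every ctrl-OE library, as did 1.21% of all tested genes in MEIS1-OE and 0.279% in MEIS2-OE, and MEIS1-OE and MEIS2-OE overlapped each other. The mean CPM was 52.6% lower in MEIS1-OE (log2 fold change -1.08, standard error 0.06) and 39.7% lower in MEIS2-OE (log2 fold change -0.73, standard error 0.06). In the knockout arm F13A1 spanned 93.9 to 108.2 CPM in ctrl-KO (median 100.3), 102.5 to 122.9 CPM in MEIS1-KO (median 114.8) and 97.3 to 119.7 CPM in MEIS2-KO (median 109.7). These 3 groups overlapped, and the log2 fold changes were 0.19 in MEIS1-KO (standard error 0.05) and 0.12 in MEIS2-KO (standard error 0.05).

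**Figure D1:**
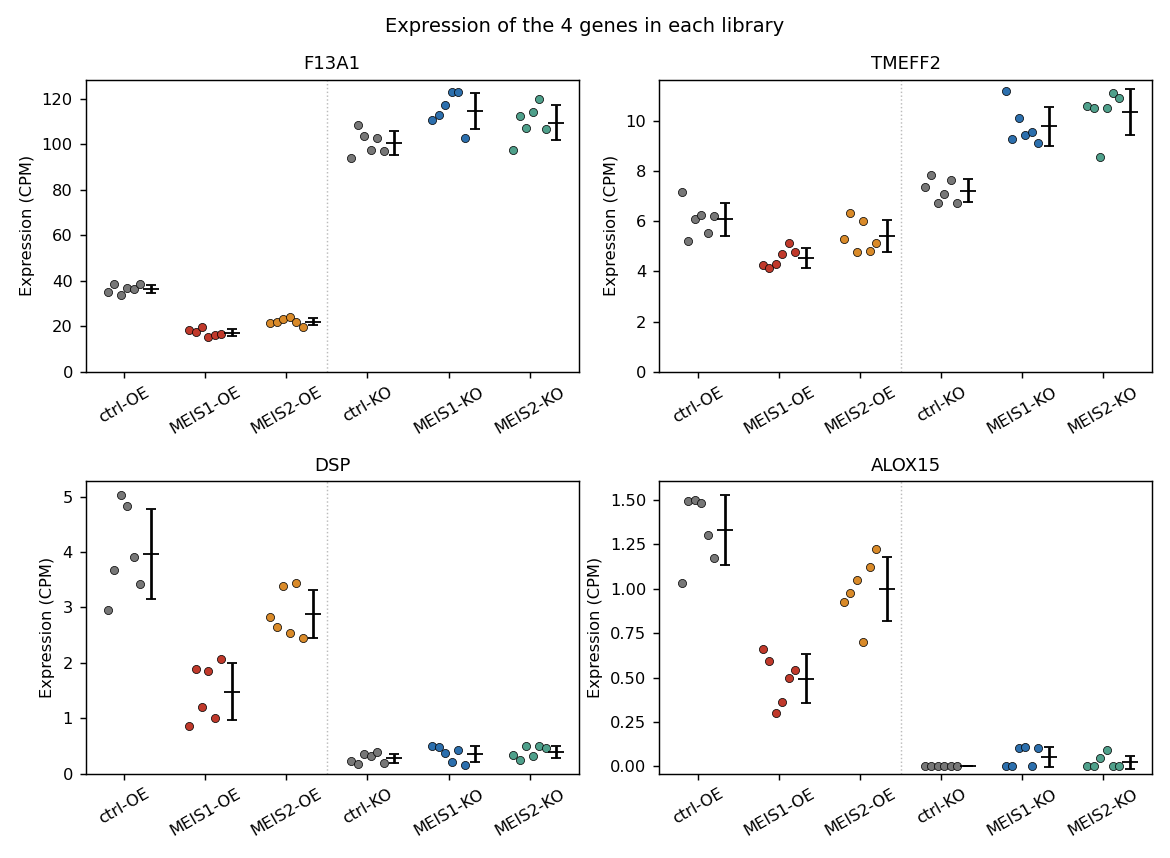
Expression of F13A1, TMEFF2, DSP and ALOX15 in CPM (y axis, linear, with its own range in each panel) in each of the 36 libraries by condition (x axis). Dots are libraries and the bars beside them give the mean ± SD of 6 libraries. F13A1 lies between 15.3 and 38.4 CPM left of the dotted line (overexpression arm) and between 93.9 and 122.9 CPM right of it (knockout arm), whereas DSP and ALOX15 are highest in ctrl-OE.

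TMEFF2 was the gene of the 4 whose knockout libraries lay apart from their control. Its gene occupies positions 192813769 to 193059659 of chromosome 2 (GRCh37, minus strand). Expression spanned 5.21 to 7.15 CPM in ctrl-OE (median 6.13), 4.12 to 5.14 CPM in MEIS1-OE (median 4.48) and 4.77 to 6.32 CPM in MEIS2-OE (median 5.22). MEIS1-OE lay wholly below ctrl-OE, by a small margin, and MEIS2-OE overlapped it. The log2 fold changes were -0.41 in MEIS1-OE (standard error 0.09) and -0.17 in MEIS2-OE (standard error 0.08). The knockout arm spanned 6.71 to 7.82 CPM in ctrl-KO (median 7.21), 9.13 to 11.2 CPM in MEIS1-KO (median 9.49) and 8.56 to 11.1 CPM in MEIS2-KO (median 10.6). Both knockouts lay wholly above ctrl-KO, as did 0.762% of all tested genes in MEIS1-KO and 2.39% in MEIS2-KO, with log2 fold changes of 0.44 in MEIS1-KO (standard error 0.08) and 0.52 in MEIS2-KO (standard error 0.08). Replicate 3 of MEIS2-KO, at 8.56 CPM, stood below the other 5 libraries of its condition, which began at 10.5, and without replicate 3 of all conditions the log2 fold change was 0.55.

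DSP was expressed at a few CPM in the overexpression arm and close to the detection limit in the knockout arm. Its gene occupies positions 7541571 to 7586947 of chromosome 6 (GRCh37, plus strand), with its start 1.22 Mb from that of F13A1. Expression spanned 2.95 to 5.03 CPM in ctrl-OE (median 3.79), 0.863 to 2.07 CPM in MEIS1-OE (median 1.54) and 2.44 to 3.44 CPM in MEIS2-OE (median 2.74). MEIS1-OE lay wholly below both other conditions of its arm (1.33% of all tested genes lay wholly below MEIS2-OE), while MEIS2-OE overlapped ctrl-OE. The mean CPM was 62.7% lower in MEIS1-OE (log2 fold change -1.41, standard error 0.17) and 27.5% lower in MEIS2-OE (log2 fold change -0.46, standard error 0.15). The knockout arm held 3 to 8 counts per library in ctrl-KO, 3 to 9 in MEIS1-KO and 5 to 11 in MEIS2-KO, and the groups overlapped. The ratio of summed expression was 1.27 for MEIS1-KO over ctrl-KO, with an exact 95% interval of 0.773 to 2.11, and 1.44 for MEIS2-KO over ctrl-KO, with an interval of 0.898 to 2.35. These intervals cover counting error only.

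ALOX15 (chromosome 17, GRCh37 positions 4534214 to 4545589, minus strand) was detected at low levels in the overexpression arm and almost not at all in the knockout arm. Expression spanned 1.03 to 1.5 CPM in ctrl-OE (median 1.39), which was 22 to 37 counts per library. MEIS1-OE spanned 0.302 to 0.66 CPM (median 0.52) and MEIS2-OE 0.699 to 1.22 CPM (median 1.01). As for DSP, MEIS1-OE lay wholly below ctrl-OE and MEIS2-OE, and MEIS2-OE overlapped ctrl-OE. The mean CPM was 62.8% lower in MEIS1-OE (log2 fold change -1.43, standard error 0.22) and 24.8% lower in MEIS2-OE (log2 fold change -0.41, standard error 0.19). In ctrl-KO no library had a count, which allows up to 0.0266 CPM (3 counts over the 6 libraries). MEIS1-KO had 6 counts in all, with none in 3 libraries, and MEIS2-KO had 3 counts in all, with none in 4 libraries. Taken over the group, MEIS1-KO was 2.02 times the limit for ctrl-KO. This is no test, because the difference is part of the contrast by which the gene was chosen. For MEIS2-KO no fold is given because its 3 counts are themselves at that limit. Fitted fold changes of ALOX15 in the knockouts depend on the prior count of the fit and are not given here.

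**Figure D2:**
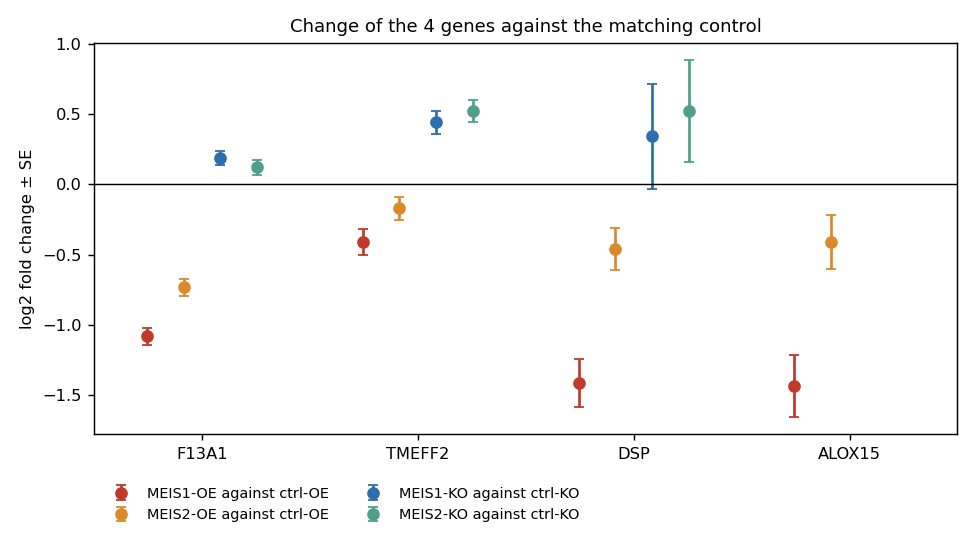
log2 fold change ± standard error (y axis) of F13A1, TMEFF2, DSP and ALOX15 (x axis) in each overexpression against ctrl-OE and each knockout against ctrl-KO, with 6 libraries per condition. All 8 overexpression points lie below 0, the MEIS1-OE point lies below the MEIS2-OE point for each gene, and the 6 knockout points shown lie above 0. ALOX15 is not drawn in the knockouts because ctrl-KO had no count.

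All 4 genes lay in MEIS1-OE wholly below ctrl-OE (1.21% of all tested genes did), a pattern that the choice of the genes made likely. In MEIS2-OE 1 of the 4 did so (F13A1, against 0.279% of all tested genes), and in both knockouts 1 of the 4 lay wholly above ctrl-KO (TMEFF2, against 0.762% in MEIS1-KO and 2.39% in MEIS2-KO). Side by side, the libraries of MEIS1-OE were wholly below those of MEIS2-OE, as for 1.33% of all tested genes, for DSP (log2 difference -0.95, standard error 0.17) and ALOX15 (-1.02, standard error 0.23), and the ranges overlapped for F13A1 (-0.35, standard error 0.06) and TMEFF2 (-0.24, standard error 0.09). MEIS1-OE and MEIS2-OE share their control libraries, and so do MEIS1-KO and MEIS2-KO. The direction that either pair has in common against its control is therefore not independent.

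The MEIS1 and MEIS2 contrasts subtract the effect of knockout from that of overexpression and are the measure by which the genes were chosen. The MEIS1 contrast was -1.27 for F13A1 (standard error 0.08), -0.85 for TMEFF2 (0.12) and -1.76 for DSP (0.41), and none is given for ALOX15 because ctrl-KO had no count. Its overexpression and knockout parts were -1.08 and 0.19 for F13A1, -0.41 and 0.44 for TMEFF2, and -1.41 and 0.34 for DSP. Thus most of the MEIS1 difference came from overexpression for F13A1 and DSP, and about equal amounts came from both parts for TMEFF2. The knockout part of DSP was poorly measured (standard error 0.37), at few counts per library. The MEIS2 contrast was -0.85 for F13A1 (0.08), -0.69 for TMEFF2 (0.12) and -0.98 for DSP (0.39). Its overexpression and knockout parts were -0.73 and 0.12 for F13A1, -0.17 and 0.52 for TMEFF2, and -0.46 and 0.52 for DSP. Here the larger part was overexpression for F13A1 and knockout for TMEFF2. The parts of DSP were of similar size, with a standard error of 0.36 for the knockout part. A gene was called where its adjusted p was below 0.05 and its log2 fold change was larger than 0.58 in either direction. In the MEIS1 contrast 0.330% of tested genes were called lower, in the MEIS2 contrast 0.599%. By size alone, and among the members with a contrast given here, TMEFF2 was nearest to the threshold of 0.58 in both contrasts. Just outside that size in the MEIS1 contrast lay the desmosomal cadherin gene DSG2 at -0.57 (0.12). DSP and ALOX15 did not meet the rule for a call in the MEIS2 contrast. This is a description and no test, because the genes were chosen by these contrasts. The size of the ALOX15 contrast depended on the prior count of the fit and is not given.

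The difference between the control conditions was larger than that of any MEIS manipulation for F13A1 and DSP, on the log2 scale. F13A1 was lower in ctrl-OE than in ctrl-KO (log2 fold change -1.46, standard error 0.06), whereas DSP was higher in ctrl-OE, with a ratio of summed expression of 14.5 and an exact 95% interval of 10.1 to 21.5. ALOX15 in ctrl-OE was 50.2 times the limit for ctrl-KO, and the exact 95% lower bound on the ratio was 40.4. TMEFF2 overlapped between the controls and differed by -0.25 on the log2 scale (standard error 0.08). Of all tested genes, 16.0% lay wholly lower and 15.8% wholly higher in ctrl-OE. The same arm difference held in cells with a targeted paralog, with ALOX15 in MEIS1-OE 9.15 times its level in MEIS1-KO (exact 95% interval 3.97 to 25.9) and in MEIS2-OE 39.6 times that in MEIS2-KO (13.3 to 194.9). For DSP the ratios were 4.27 (3.01 to 6.19) and 7.29 (5.37 to 10.1). The exact intervals and bounds given here cover counting error only, not the spread between libraries.

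Marker sums differed between the arms and, for MEIS2-KO, within one. The summed CPM of 9 neural stem cell markers was 2949.4 to 4209.4 over the overexpression arm and 4466.1 to 6084.2 over the knockout arm, and that of 6 neuronal markers was 403.5 to 584.9 and 808.4 to 1033.9. Marker sums are unweighted, so abundant genes weigh most in them. In the stem cell sum these were VIM and NES, with medians of 2378.2 and 1251.6 CPM against 193.3 for SOX2. Single markers were not compared between conditions. The summed CPM of 7 macrophage markers was at most 0.914 in any library. Epithelial markers summed to 0.563 to 1.09 CPM in ctrl-OE and 0.353 to 0.731 CPM in ctrl-KO. Within the knockout arm, MEIS2-KO lay wholly above ctrl-KO in the sums of the neural stem cell markers (4995.1 to 6084.2 CPM against 4466.1 to 4971.4), the 5 endothelial markers (203.4 to 250.6 against 168.8 to 184.5) and the 4 fibroblast markers (133.6 to 190.8 against 100.7 to 133.1). The part of these markers in the values of TMEFF2 and the pathway genes in MEIS2-KO, and that of cell composition in the differences between arms, was not tested, and vector system, Cas9 form and activator cannot be told apart.

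In order of level, F13A1 ran from MEIS1-KO over MEIS2-KO, ctrl-KO, ctrl-OE and MEIS2-OE to MEIS1-OE, and the neighbours in this order overlapped except at the steps from ctrl-KO to ctrl-OE and from ctrl-OE to MEIS2-OE. For TMEFF2 the order was MEIS2-KO, MEIS1-KO, ctrl-KO, ctrl-OE, MEIS2-OE, MEIS1-OE, and only MEIS1-KO and ctrl-KO were separate. DSP and ALOX15 both ran from ctrl-OE over MEIS2-OE to MEIS1-OE and then to the knockout arm, with separate ranges at the steps from MEIS2-OE to MEIS1-OE and from MEIS1-OE to the knockout arm. Per kb of merged exon (GENCODE 44 lifted to GRCh37), mean expression in ctrl-OE was 8.0 CPM for F13A1, 1.04 for TMEFF2, 0.392 for ALOX15 and 0.291 for DSP. In ctrl-KO it was 22.1 CPM per kb for F13A1, 1.23 for TMEFF2 and 0.0201 for DSP.

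Across the 36 libraries, the log2 CPM of F13A1 and TMEFF2 correlated with a Pearson r of 0.90 and that of DSP and ALOX15 with 0.93, while F13A1 and DSP gave -0.80. After the mean of each condition was removed, these values were -0.08, -0.25 and -0.03, so the likeness lay in the condition means. Among the 13464 genes with a mean of at least 1 CPM, those most like F13A1 over the 36 libraries were PDE3A (r = 0.983), TNIK (0.980) and KIF20A (0.979). The closest for TMEFF2 were NQO1 (0.931), F11R (0.924) and ELMO1 (0.922), for DSP ADI1 (0.950), VWA5B2 (0.947) and MAP1A (0.946), and for ALOX15 FRMD8 (0.971), ACADVL (0.967) and VWA5B2 (0.964). VWA5B2, which appears for both DSP and ALOX15, had a mean of 2.76 CPM in ctrl-OE, 1.09 in MEIS1-OE, 2.85 in MEIS2-OE and 0.0609 in ctrl-KO. All of these r values share the contrast of the arms among their points.

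The genes that work with these 4 proteins were followed in 6 lists of 98 genes in all, of which 78 had enough counts to be tested. In MEIS1-OE 5 of the 78 were called by the quasi-likelihood test of edgeR (adjusted over all tested genes by Benjamini-Hochberg), 2 higher and 3 lower, against 2.84% of all tested genes, with 3 called without replicate 2 and 2 without replicate 5. In MEIS2-OE 1 was called, against 0.498%, and none without replicate 1, 4, 5 or 6 in turn. In MEIS1-KO 2 were called, both higher, against 0.290%, and 1 without replicate 3, 4, 5 or 6 in turn. In MEIS2-KO 8 were called, 6 higher and 2 lower, against 1.58%, with 4 called without replicate 1 or 4 and 5 without replicate 2 or 5. The median log2 fold change of the 78 genes was 0.06, -0.03, 0.09 and 0.27 in these comparisons, and that of all tested genes lay between -0.01 and 0.00.

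Of the 5 transglutaminase genes tested, TGM2, the widely expressed tissue transglutaminase, was called lower in MEIS1-OE. It spanned 0.748 to 1.53 CPM in ctrl-OE (median 0.959) and 0.355 to 0.645 CPM in MEIS1-OE (median 0.569), and the groups did not overlap. On the log2 scale it fell by 0.89 (standard error 0.24, adjusted p = 0.012 by edgeR), a call lost without replicate 5 (-0.77, adjusted p = 0.065). For MEIS2-OE the value was -0.40 (adjusted p = 0.768 by edgeR). TGM5 rose in MEIS1-KO (1.31, standard error 0.31, adjusted p = 0.0175 from edgeR) and in MEIS2-KO (1.18, standard error 0.31, adjusted p = 0.0111), but both from at most 8 counts per ctrl-KO library. Leaving out replicate 3, 4, 5 or 6 ended the first call (adjusted p from 0.052 to 0.088) and leaving out replicate 4 the second (adjusted p = 0.064). TGM4 rose in MEIS2-KO (0.77, adjusted p = 0.0219 from edgeR), a call lost without replicate 1, 2, 4 or 6 (adjusted p from 0.085 to 0.099). F13B, the carrier subunit of factor XIII, had 6 counts in all libraries together and was not tested.

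Of 17 tested genes of desmosomes and their filament partners other than DSP, 1 was called in MEIS1-OE. This was DSG2, a desmosomal cadherin, with 13.2 to 19.2 CPM in ctrl-OE (median 16.1) and 9.47 to 12.3 CPM in MEIS1-OE (median 10.6). It fell in MEIS1-OE (log2 fold change -0.59, standard error 0.08, adjusted p = 4.1e-07 from edgeR), and without replicate 2 or replicate 5 its fold change no longer passed the threshold (-0.58 and -0.53). PKP2, a plakophilin of the desmosomal plaque, also lay wholly lower in MEIS1-OE, at 5.68 to 7.81 CPM against 8.0 to 10.2, but its log2 fold change of -0.37 (adjusted p = 0.0039 from edgeR) was below the size threshold. JUP, which encodes plakoglobin, stood at 0.09 (adjusted p = 0.805 by edgeR, with replicate 3 of MEIS1-OE at 87.1 CPM and the other 5 at 134.1 to 154.5), and the cadherin DSC2, wholly higher in MEIS1-OE at 15.9 to 22.0 CPM against 13.6 to 15.5, at 0.33 (adjusted p = 0.00385), also below the size threshold. None of the 17 was called in MEIS1-KO or MEIS2-OE by edgeR or DESeq2, with 2 and 0 genes at an unadjusted p under 0.05. In MEIS2-KO KRT18 was called higher (0.73, adjusted p = 0.0389 from edgeR), a call lost when replicate 1, 2, 4 or 5 was left out (adjusted p from 0.076 to 0.24) or a replicate block was fitted (0.73, adjusted p = 0.05), and DSG3 was called lower (adjusted p = 0.04 from edgeR) from at most 3 counts per library. DESeq2 gave DSG3 no adjusted p, and its call was lost with a replicate block (0.055) and without replicate 1, 2, 3, 5 or 6 (adjusted p from 0.071 to 0.18).

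Between ctrl-OE and ctrl-KO the list of desmosome genes and filament partners, which includes the keratin gene KRT18, differed widely. Of its 17 tested genes, 10 were called higher and 2 lower in ctrl-OE by edgeR, against 22.1% of all tested genes called in either direction. The median log2 fold change of the list was 1.25, against 0.05 over all tested genes. DSG2 was higher in ctrl-OE (log2 fold change 1.29, standard error 0.08, adjusted p = 3.4e-16 from edgeR), as were PKP2 (0.97, adjusted p = 2.9e-11) and JUP (0.64, adjusted p = 0.00012). DSP had the same sign as these, whereas DSC2 had a log2 fold change of -0.32 (adjusted p = 0.00088 from edgeR). Over all 6 lists, 33 of the 78 tested genes were called between the controls, or 42.3%, with 25 higher and 8 lower.

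Among the partners of TMEFF2, PDGFA, which encodes the ligand chain of PDGF-AA, was raised in both overexpressions. It spanned 0.805 to 1.07 CPM in ctrl-OE (median 0.857), 4.26 to 6.12 CPM in MEIS1-OE (median 5.30) and 1.07 to 2.35 CPM in MEIS2-OE (median 1.45). On the log2 scale it rose by 2.54 in MEIS1-OE (standard error 0.16, adjusted p = 1.5e-15 from edgeR) and by 0.75 in MEIS2-OE (standard error 0.19, adjusted p = 0.0238), the latter lost when replicate 1, 3, 4, 5 or 6 was left out (adjusted p from 0.066 to 0.2). TMEFF1, the closest relative of TMEFF2, had a log2 fold change of -0.29 in MEIS1-OE (adjusted p = 0.0428 from edgeR), below the size threshold, and of 0.09 and 0.12 in the knockouts. Of the other genes of this list of 12 tested, SMOC2 was called lower in MEIS1-OE (-1.13, adjusted p = 0.0407 from edgeR) from at most 9 counts per library in ctrl-OE and lost its call whichever replicate was left out (adjusted p from 0.074 to 0.12). SMOC1 was called lower in MEIS2-KO (-0.92, adjusted p = 0.0378 from edgeR), but not by DESeq2 (adjusted p = 0.062). Its edgeR call was lost without replicate 1, 2, 4 or 5 (adjusted p from 0.057 to 0.14). The study listed SMOC1 among potential off-target genes of the knockout guides. It did not count SMOC1 as an off-target of 1 guide, because both paralogs affected it.

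Lipoxygenases and the enzymes of eicosanoid synthesis gave no call by edgeR or DESeq2 in any of the 4 comparisons with a matching control. Of the 17 genes tested, 1 in MEIS1-OE, 1 in MEIS1-KO, 3 in MEIS2-OE and 3 in MEIS2-KO had an unadjusted p under 0.05. ALOX5, the lipoxygenase of leukotriene synthesis, had at most 5 counts in any library, ALOX15B, a relative of ALOX15, had at most 5 in any ctrl-OE library, and ALOX12 was too low to be tested. Between the controls, 4 genes of the list were called higher and 1 lower in ctrl-OE by edgeR. That was 29.4% of the list, against 22.1% of all tested genes.

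**Figure D3:**
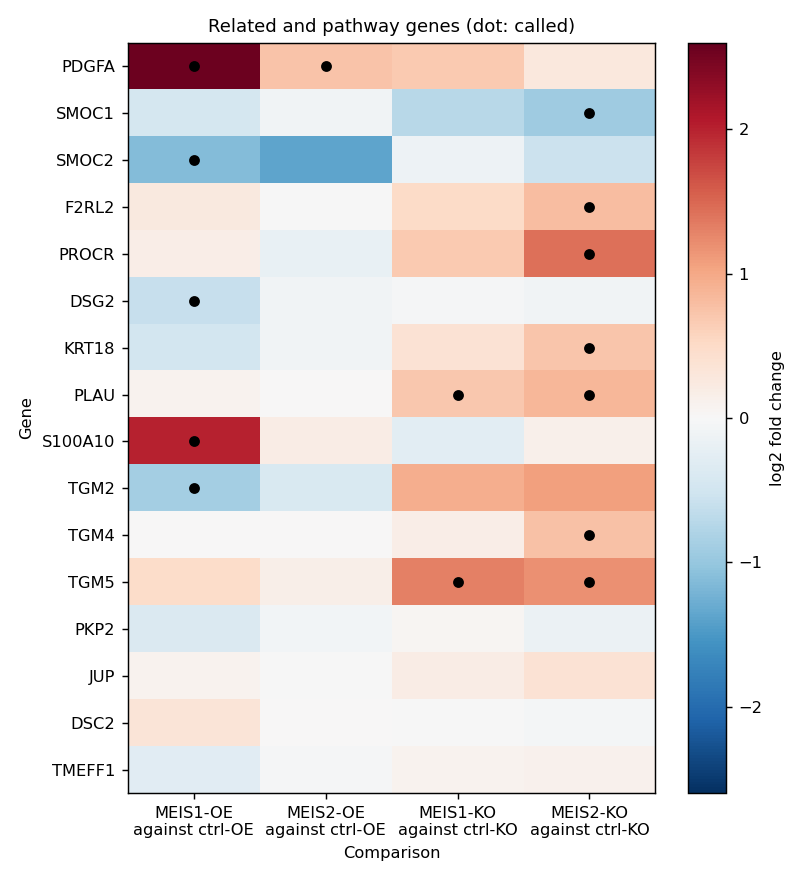
log2 fold change (colour) of related and pathway genes (y axis) in each overexpression and knockout against its control (x axis), with dots where a gene was called (adjusted p below 0.05 and a change larger than 0.58 in either direction). PDGFA at 2.54 and S100A10 at 2.01 in MEIS1-OE are the strongest colours, and TGM2 and DSG2 are called lower in MEIS1-OE. DSG3 is left out because of its low counts.

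All calls among the clot formation and lysis genes in the 4 comparisons with a matching control were upward. They came from both arms, S100A10 from MEIS1-OE and the others from knockouts, so their direction relative to MEIS was not shared. No clotting gene of 19 tested was called in MEIS1-OE, MEIS1-KO or MEIS2-OE by edgeR or DESeq2, with 5, 4 and 1 at an unadjusted p under 0.05, and 2 rose in MEIS2-KO, against 1.58% of all tested genes called there. These were PROCR, the endothelial protein C receptor (log2 fold change 1.44, standard error 0.16, adjusted p = 4.1e-07 from edgeR), and the thrombin receptor family member F2RL2 (0.81, standard error 0.16, adjusted p = 0.00112). The endothelial marker sum was also wholly higher in MEIS2-KO, at 203.4 to 250.6 CPM against 168.8 to 184.5 in ctrl-KO. In ctrl-OE that sum was lower than in ctrl-KO, at 106.0 to 134.1 CPM, whereas PROCR was higher (log2 fold change 2.45, standard error 0.15). The part of endothelial markers in the rise of PROCR was not tested. Of 8 lysis genes tested, 1 rose in each of MEIS1-OE, MEIS1-KO and MEIS2-KO, against 2.84%, 0.290% and 1.58% of all tested genes called. PLAU, the urokinase plasminogen activator, rose in MEIS1-KO (0.71, adjusted p = 0.00114 from edgeR) and MEIS2-KO (0.86, adjusted p = 2.4e-05), and S100A10, a partner of annexin A2 that binds plasminogen, rose in MEIS1-OE (2.01, adjusted p = 3.8e-08). No gene of the lysis list was called in MEIS2-OE by edgeR or DESeq2, with 1 at an unadjusted p under 0.05.

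The study listed other genes under wound healing on the basis of these same libraries, so their direction is not independent evidence and is given as a description. In the MEIS1 contrast CDH3, a classical cadherin, stood at -0.75 and HBEGF, an EGF receptor ligand, at -0.72. In the MEIS2 contrast PROCR stood at -1.64, IL1A at -1.02, PLAU at -0.85, F2RL2 at -0.82, CLDN19 at -0.81, CD44 at -0.80 and HBEGF at -0.59. For CDH3 the overexpression part was -0.75 and the knockout part 0.00, whereas for HBEGF the parts were -0.10 and 0.61. In the MEIS2 contrast most of these genes had their larger part in the knockout, such as CD44 with 0.14 in MEIS2-OE and 0.94 in MEIS2-KO. CLDN19 had parts of nearly equal size, -0.43 and 0.38.

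None of the genes beside the 4 on their chromosomes was called in MEIS1-OE. For the 3 tested genes with a known position on either side of each member, which are 22 different genes, 0 were called in MEIS1-OE by edgeR or DESeq2, against 2.84% of all tested genes, and 4 had an unadjusted p under 0.05. At that share 0 calls among 22 genes are not unusual, so the count says little about the surroundings of the members. The log2 fold changes of the neighbours lay between -0.37 for NRN1, which had a mean of 0.222 CPM, and 0.58 for SPNS2. The tested genes between F13A1 and DSP, namely RREB1, SSR1, CAGE1 and RIOK1, had log2 fold changes of -0.03, 0.16, 0.02 and -0.01. In MEIS2-KO 1 neighbour was called by edgeR and 2 by DESeq2, and the one called by edgeR was SDPR, beside TMEFF2, at 0.64 on the log2 scale (standard error 0.13, adjusted p = 0.0015). SDPR had a mean of 5.50 CPM, and TMEFF2 itself stood at 0.52 in that comparison.

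**Figure D4:**
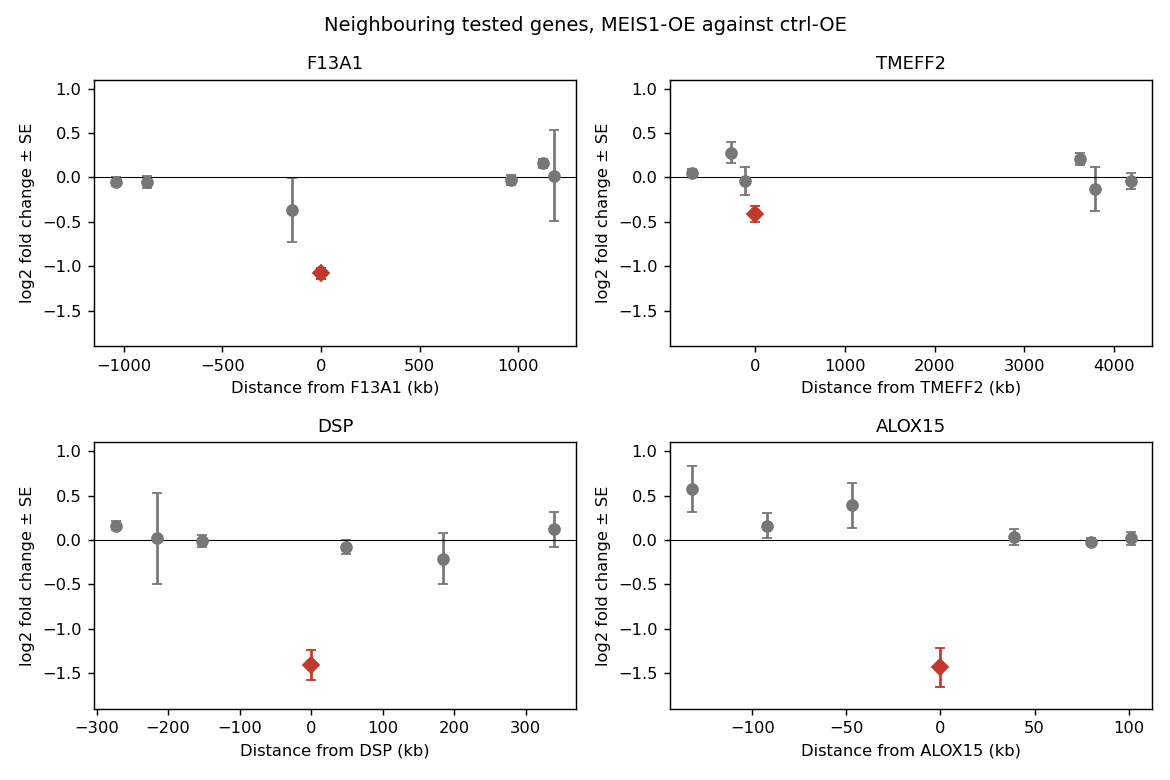
log2 fold change ± standard error in MEIS1-OE against ctrl-OE (y axis) of the 3 tested genes on either side of each member, against the distance in kb between the lower coordinates of the 2 genes (x axis, with its own range in each panel). Diamonds are the members at distance 0, from -1.43 for ALOX15 to -0.41 for TMEFF2, and circles are neighbours, which lie between -0.37 and 0.58.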

How the data were processed

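The authors prepared stranded poly-A libraries, and their methods name STAR for alignment to hg19 and HTSeq for counting. Per the labels' processing notes the tools were Trimmomatic 0.39 and STAR 2.7.0a. The annotation and strand setting used for counting are not given in the sources used here, so reads of overlapping genes on the opposite strand may be included. The deposited values are raw counts per gene symbol, without normalization, for 36 libraries and 28516 genes.

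A gene was tested if its counts over the 36 libraries added up to 10 or more (19689 genes). TMM scaling and quasi-likelihood F tests were computed in edgeR 4.0.16 (R 4.3.3) in a single fit of 6 conditions, with a prior count of 0.125, two-sided p-values and Benjamini-Hochberg adjustment over the tested genes within each comparison. The standard error of a log2 fold change is its size over the root of F. Levels are CPM on TMM library sizes. The biological coefficient of variation was 0.0915. Data were also simulated for MEIS1-OE against ctrl-OE (19525 genes). At adjusted p below 0.05 alone, edgeR recovered 87 of 100 genes changed 1.5-fold and 99 of 100 changed 2-fold, with 8 unchanged genes called. The size threshold was not applied there, and the changed genes were drawn from those with higher counts. The recovery of low-count genes and of calls with the size threshold was not tested. No pair of libraries within a condition agreed within sampling noise (chi-square per degree of freedom 2.63 to 36.0).

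The 4 genes, the 6 gene lists and the comparisons were chosen with earlier results of these data known. Named were the 4 genes and their closest relatives, up to 3 called genes per list and comparison, the genes the study placed under wound healing, the nearest 3 tested genes on either side (GENCODE 44 lifted to GRCh37, older symbols matched by RefSeq synonyms, 17037 tested genes placed, 1261 of them by an older symbol), and the 3 genes most correlated over 36 libraries (log2 CPM, prior count 2). Alternatives were RLE size factors, filterByExpr, all genes with a count, a prior count of 2, a replicate block, only the groups compared, DESeq2 1.42.0, and each replicate number left out. Not every result is reported here.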

Additional observations from a re-analysis of the deposited data

Results flagged for a closer look

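Single libraries stood apart from the other 5 of their condition by Dixon's criterion in 8 of 81 sets of a gene and a condition, where chance gives about 1 in 20. They were TMEFF2 in MEIS2-KO replicate 3 (8.56 CPM, others 10.5 to 11.1), TGM2 in MEIS1-OE replicate 1 (0.355 CPM, others 0.545 to 0.645) and ALOX5 in MEIS1-KO replicate 4 (0.0536 CPM from 1 count, others 0). JUP was low in MEIS1-OE replicate 3 (87.1 CPM, others 134.1 to 154.5) and in ctrl-KO replicate 2 (59.3 CPM, others 80.4 to 92.5). PKP2 was low in MEIS1-KO replicate 2 (3.72 CPM, others 4.66 to 4.98). MEIS1 was low in ctrl-OE replicate 3 (15.7 CPM, others 18.0 to 18.8) and MEIS2 high in MEIS1-OE replicate 3 (26.1 CPM, others 20.8 to 22.2).

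For 2 of the named pathway genes MEIS1-OE and MEIS2-OE, tested directly against each other, differed past both thresholds of a call (adjusted p and size). The log2 difference was 1.78 for PDGFA (standard error 0.15, adjusted p = 4.9e-12 from edgeR) and 1.82 for S100A10 (standard error 0.24, adjusted p = 3.1e-07), each higher in MEIS1-OE. By adjusted p alone, 5 more differed with a smaller log2 difference, namely DSG2 (-0.49, adjusted p = 1.9e-05 from edgeR), CDH3 (-0.52, adjusted p = 0.00159), DSC2 (0.32, adjusted p = 0.00539), PROCR (0.38, adjusted p = 0.0214) and PKP2 (-0.29, adjusted p = 0.0332).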

How the results depend on the processing

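Of 362 values of the 4 genes under 13 other settings, 0 changed sign and 17 moved by over 1 SD, of which 16 were of ALOX15 in comparisons with the knockout arm and 1 of DSP between the controls. The log2 fold change in MEIS1-OE lay between -1.14 and -1.04 for F13A1, -0.48 and -0.34 for TMEFF2, -1.57 and -1.28 for DSP, and -1.58 and -1.28 for ALOX15. Of 606 values of 47 other named calls, 72 lost their call and 0 changed sign. With only the groups compared in the fit, the number of pathway genes called was 0 in place of 1 in MEIS2-OE, 2 in place of 4 in the MEIS1 contrast and 5 in place of 3 in the MEIS2 contrast. Leaving out each replicate number in turn gave 2 to 5 pathway genes in MEIS1-OE, 1 to 2 in MEIS1-KO, 0 to 1 in MEIS2-OE, 4 to 7 in MEIS2-KO and 1 to 5 in the MEIS1 contrast (1 without replicate 5, 2 without replicate 3). Over all genes it gave 26 to 64 in MEIS1-KO (main value 57, 26 without replicate 3), 189 to 330 in MEIS2-KO (main value 312, 189 without replicate 5) and 115 to 170 in the MEIS2 contrast (main value 194, 115 without replicate 5). The cause was not tested. Libraries with the same replicate number were slightly more alike than other pairs between conditions. Of 90 pairs with the same number, 46 had a correlation of deviations over 0.1 (mean 0.0993, other pairs -0.021). The main fit did not use this pairing. With the replicate block, 4 pathway genes were called in MEIS1-OE, 2 in MEIS1-KO, 1 in MEIS2-OE and 6 in MEIS2-KO. Depth limits DSP and ALOX15 in the knockout arm, where libraries held at most 11 and 2 counts.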
